A study of Mus musculus with 17 samples.

Results

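The genes of the growth hormone and insulin-like growth factor (IGF) axis in these livers were the growth hormone receptor gene Ghr, the hormone-induced feedback inhibitors Socs2 and Cish, the repressor Bcl6, the secreted factor Igf1 with its serum carriers Igfals and Igfbp2, and 3 growth hormone–responsive liver genes, Hsd3b5, Elovl3, and Keg1. Every probe that carried 1 of these symbols on a mouse oligonucleotide array was taken, which gave 19 of 41174 probes. The 10 genes were chosen by name with earlier results of these same arrays in view, so the values and calls given for them are a description and support nothing on their own. Ghr had 5 probes, Igf1 had 4, Keg1 and Socs2 had 2 each, and the other genes had 1.

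Liver RNA of 17 male C57BL/6N mice (C57BL/6J by the methods) was measured, 1 array a mouse. The chow group (n = 4) ate chow for 3 months and received maltose by gavage, the 1B group (n = 4) ate the same chow and received 1 gavage of ethanol at 5 g/kg, the HFD group (n = 4) ate a high-fat diet for 3 months and received maltose, and the HFD+1B group (n = 5) ate the same high-fat diet and received the ethanol gavage. All livers were collected 9 hours after the gavage, so every mouse had been gavaged, and the age of the mice is not given in the sources used here. Liver complementary DNA was labeled with Cy5 and hybridized against a Cy3-labeled reference common to all arrays, which the labels call both assorted mouse total RNA and liver, so its source is not settled. A level is the log2 ratio of liver to reference, which compares groups for 1 probe and not 1 gene with another.

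Pituitary growth hormone binds its receptor on hepatocytes and signals through JAK2 and STAT5B. STAT5B induces Igf1 and Igfals, and it also induces Socs2 and Cish, whose products dampen the receptor. In male mice growth hormone arrives in pulses, and this rhythm maintains a male pattern of liver genes that includes Hsd3b5, Elovl3, and many cytochrome P450 and major urinary protein genes, whereas near-continuous hormone in females maintains another pattern. Bcl6 is a repressor that opposes STAT5 in male liver. IGF-1 leaves the liver and circulates in complexes with binding proteins and the acid labile subunit that Igfals encodes.

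The promoters are shown because STAT5 proteins recognize the short palindrome TTCNNNGAA, which reads the same on both strands. Windows of Igfals, Keg1, and Hsd3b5 are printed. These genes were called lower in HFD+1B than in chow, as were Ghr and Igfbp2, which are not printed. RefSeq windows (build GRCm38.p6) of the 250 bases before a transcript start were found for 8 of the 10 genes, 13 windows in all, and Socs2 and Elovl3 had no entry. The motif stood in 5 of these windows, and in 7.02% of all 32851 windows of that length. Igfals held it in 2 of its 3 windows, Keg1 2 times in its single window, and Bcl6 1 and 3 times in its windows. Bcl6 was not called in any comparison, and whether the motif goes with a lower level was not tested. No match was present in the windows of Ghr, Igf1, Igfbp2, Cish, or Hsd3b5, which says only that these letters are absent there. Matches are in capitals, and each sequence is written 5′ to 3′ on the strand of its gene.
Keg1, chr19:12695540-12695789, plus strand: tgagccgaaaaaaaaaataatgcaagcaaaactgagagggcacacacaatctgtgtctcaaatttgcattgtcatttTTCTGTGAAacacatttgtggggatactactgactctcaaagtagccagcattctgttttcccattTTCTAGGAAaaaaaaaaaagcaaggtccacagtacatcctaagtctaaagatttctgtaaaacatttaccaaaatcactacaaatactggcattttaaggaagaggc
Igfals, chr17:24877594-24877843, plus strand: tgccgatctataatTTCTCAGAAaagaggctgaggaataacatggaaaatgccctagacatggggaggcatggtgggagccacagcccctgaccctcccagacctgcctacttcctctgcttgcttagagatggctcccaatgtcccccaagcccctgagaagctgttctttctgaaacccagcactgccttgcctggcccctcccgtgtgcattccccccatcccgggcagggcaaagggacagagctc
Igfals, chr17:24877981-24878230, plus strand: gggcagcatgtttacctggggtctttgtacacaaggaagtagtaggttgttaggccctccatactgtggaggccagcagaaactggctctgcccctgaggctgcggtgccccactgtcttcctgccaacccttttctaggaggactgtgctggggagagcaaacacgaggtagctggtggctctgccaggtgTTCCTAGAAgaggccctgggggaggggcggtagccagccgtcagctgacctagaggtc
Hsd3b5, chr3:98645535-98645784, minus strand: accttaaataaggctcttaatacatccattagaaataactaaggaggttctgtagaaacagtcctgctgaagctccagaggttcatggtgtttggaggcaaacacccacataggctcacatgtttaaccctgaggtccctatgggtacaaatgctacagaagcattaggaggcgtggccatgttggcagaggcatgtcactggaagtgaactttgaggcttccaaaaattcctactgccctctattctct

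The probes are shown because probes of 1 gene did not always move together. Each is 60 bases long, and its first 30 bases are given. Ghr probes 1 and 4, Igf1 probes 1 and 4, numbered from brightest to dimmest, and the Hsd3b5 and brightest Keg1 probes begin as follows.
Ghr probe 1: aaagtacagcgagttcagcgaagtcctccg
Ghr probe 4: ccgacatatgcaaaagaacatcctgtttta
Igf1 probe 1: tggatgagtgttgcttccggagctgtgatc
Igf1 probe 4: taaaatagttgagtaaaatttgccactgat
Hsd3b5: ccctgggtgttatcaggtcctccagagagg
Keg1 probe 1: ctggagaagtagcccgtcatctaaaaagat

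All 19 probes belonged to the 34664 probes tested, which stand for 19367 genes. Every probe had a Cy5 signal well above background on 16 or 17 arrays, except Hsd3b5 (14 arrays) and the dimmer Socs2 probe (4 arrays, all HFD+1B). Between 73.9% and 86% of probes per array were well above background, and 5 slides carried the arrays, each with mice of more than 1 group. The median Cy5 signal above local background was 43 to 78 in HFD mice and 79.5 to 116 in chow. It was 49 to 112.5 in 1B and 70 to 138.5 in HFD+1B, and its part in any result was not tested. Ribosomal RNA probes (5 probes, mean log2 ratio) ranged from −3.81 to −2.15 in the HFD mice, against −1.03 to 1.12 in HFD+1B, −1.16 to 0.12 in 1B, and 0.22 to 0.59 in chow, so the HFD arrays stood apart from all others, and the part of this in any HFD result was not tested. Hepatocyte markers were abundant in every group, with a summed Cy5 intensity over 8 of 10 markers that reached from 464000 to 719000 in HFD mice, a range that held those of HFD+1B (489000 to 615000), 1B (523000 to 678000), and chow (492000 to 545000). The mean log2 level of the 7 macrophage and Kupffer cell markers tested, relative to chow, was 0.45 in HFD, 0.37 in HFD+1B, and −0.04 in 1B, and that of the 8 stellate cell markers was 0.49, 0.56, and 0.17. Of the macrophage markers 2 were called higher in HFD minus chow (Cd68 at 1.28 and Adgre1 at 0.67). Only Cd68 was called in HFD+1B minus chow (1.37), where the median was 0.22. Of the 8 stellate cell markers 3 and 4 were called higher in these comparisons. Their mean ranged from 0.03 to 0.90 in HFD+1B mice, overlapping chow (−0.17 to 0.20). Cholangiocyte markers (5 genes) were at 0.53 in HFD+1B, with a lowest mouse of 0.26 above the highest chow mouse of 0.12, and at 0.04 in HFD. Of the 5 genes only Spp1 was called in HFD+1B minus chow, at 1.84, and the others were at 0 to 0.44. Endothelial markers (6 genes) were at 0.37 in HFD, 0.27 in HFD+1B, and 0.24 in 1B. Lyve1 had large differences from chow (1.37 in HFD, 3.19 in HFD+1B, and 1.96 in 1B). In HFD+1B minus chow it was the 1 gene called higher, and 2 were called lower, Kdr at −1.05 and Clec4g at −0.82. The mean of the hepatocyte markers, relative to chow, was 0.42 in the 1B mice, with a lowest mouse of 0.18 above the highest chow mouse of 0.13. It was 0.14 in HFD+1B and −0.10 in HFD. In 1B minus chow the median difference of the 8 hepatocyte markers was 0.2, and only Ahsg was called, at 1.12, whereas Fgb, at 1.47, was not. The mean of the neutrophil markers (10 genes) was within 0.09 of 0 in every group, but its genes went in different directions. In HFD+1B minus chow 2 were called higher (S100a8 at 1.46 and S100a9 at 1.04), 1 lower (Csf3r at −1.04), and 7 were not called. The part of these cell types in the results given here was not tested. Fewer cells of a type and less RNA per cell cannot be told apart in these bulk samples.

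A gene was called in a comparison when the limma p of its brightest probe, adjusted by Benjamini-Hochberg across every probe tested, was at most 0.05. None of the 10 genes was called higher in any comparison. In 1B minus chow 4 were called lower, in HFD minus chow 3, in HFD+1B minus chow 5, and in HFD+1B minus HFD 4. Among all genes 2.09% were called higher and 2.04% lower in 1B minus chow, 4.50% and 6.46% in HFD minus chow, 8.90% and 7.40% in HFD+1B minus chow, and 11.0% and 8.39% in HFD+1B minus HFD. The median log2 difference of the 10 genes was −0.58, −0.43, −0.83, and −0.60 in that order. Because the genes were picked with these comparisons known, nothing is read from the counts. The comparisons with chow share the chow mice, and the HFD+1B mice enter both HFD+1B minus chow and HFD+1B minus HFD.

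**Figure D1:**
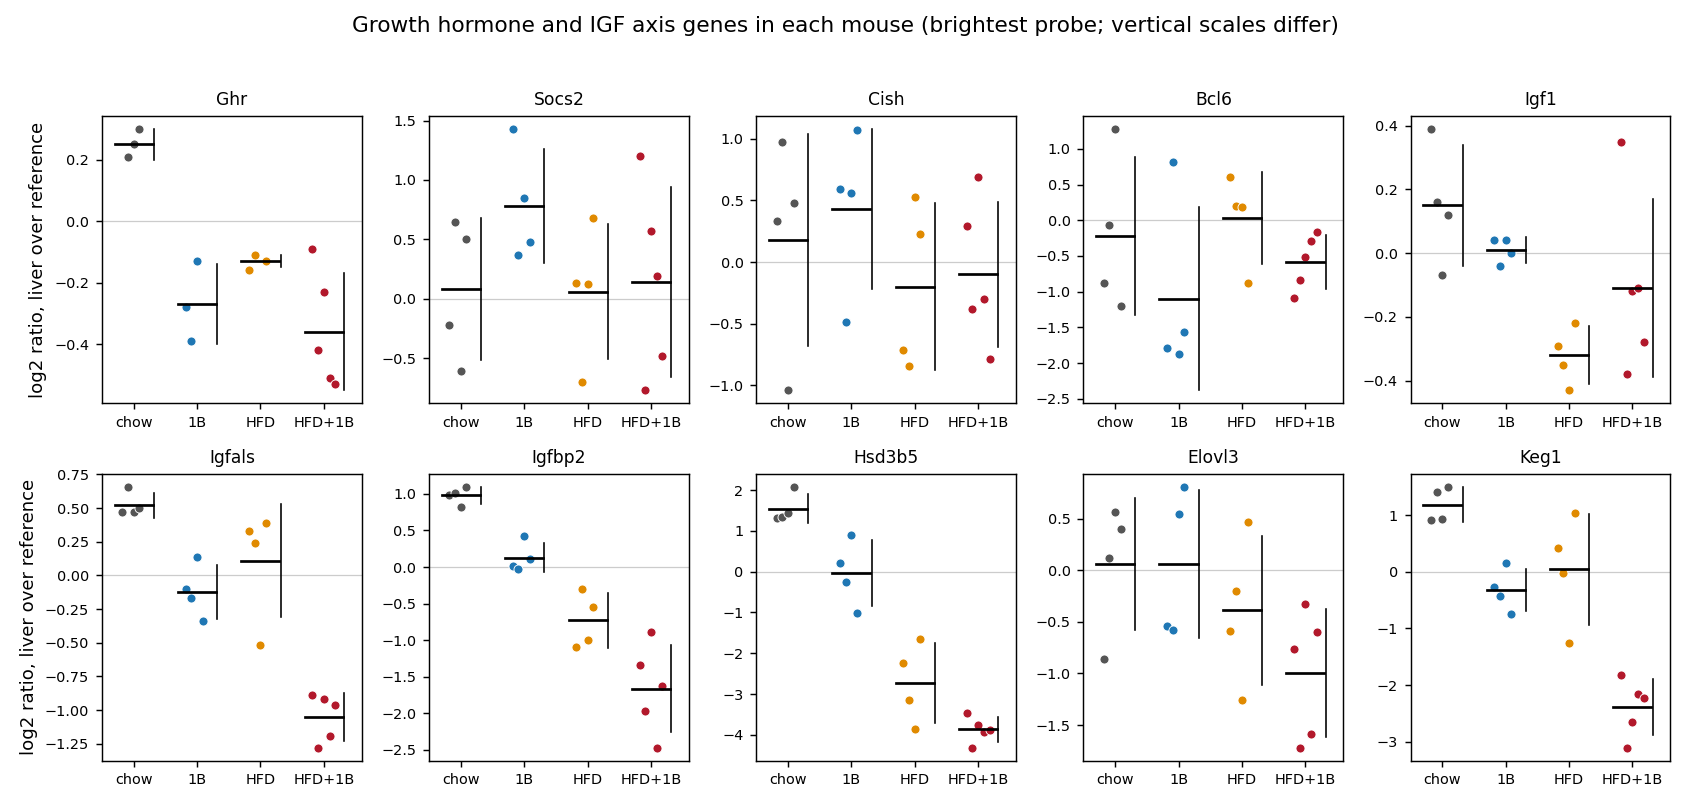
Log2 ratio of liver to reference for the brightest probe of each gene, 1 point a mouse, with the group mean (horizontal line) and SD (vertical line) for chow, 1B, HFD, and HFD+1B. Hsd3b5 falls from a mean of 1.55 in chow to −3.87 in HFD+1B and Keg1 from 1.19 to −2.39, whereas the points of Socs2, Cish, and Bcl6 overlap between all groups.

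**Figure D2:**
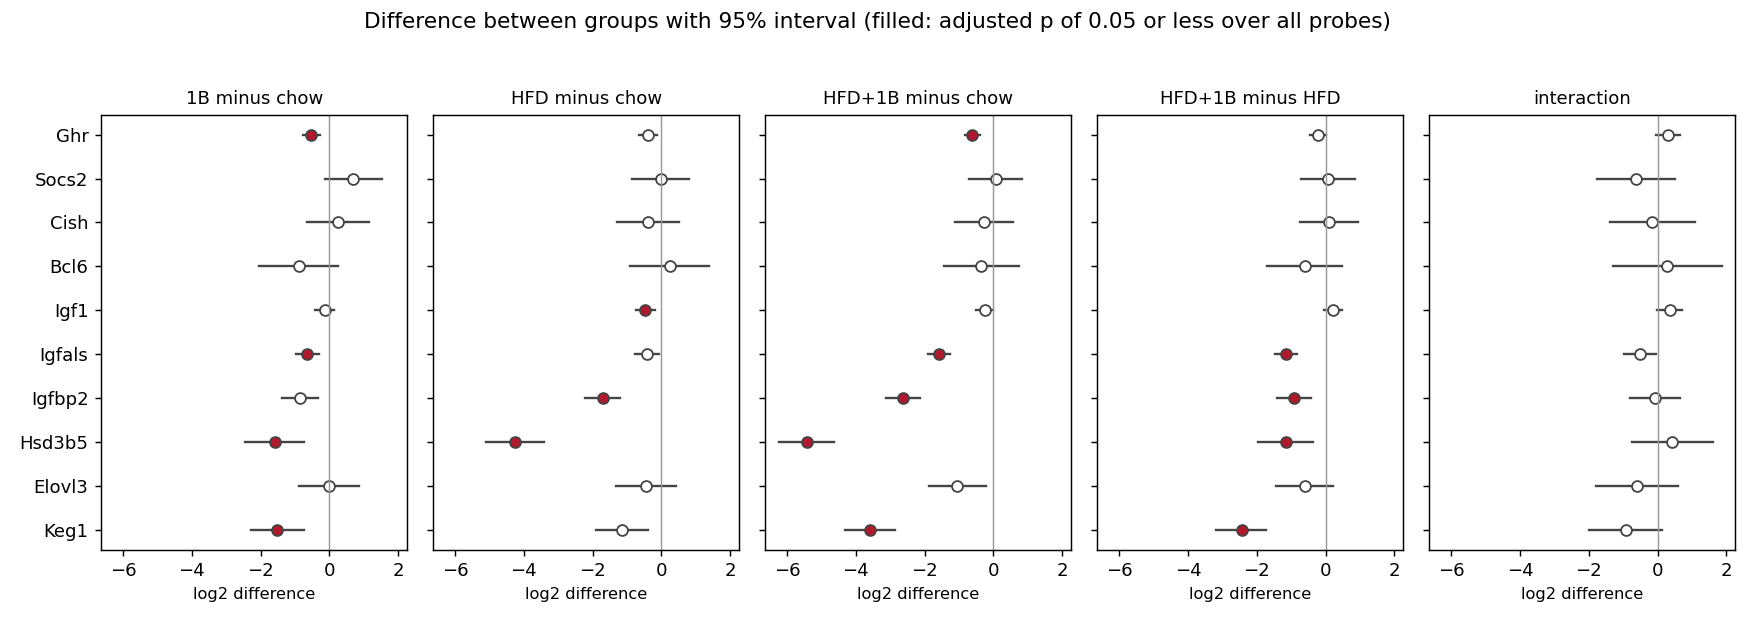
Log2 difference between groups (horizontal axis) with its 95% interval for each gene in the 4 comparisons and the interaction. Filled points mark genes called by limma at the 0.05 threshold, and all of them lie below 0.

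Ghr encodes the receptor through which the liver senses growth hormone. On its brightest probe the chow mice gave log2 ratios of 0.21, 0.25, and 0.30, the 1B mice −0.28, −0.39, and −0.13, the HFD mice −0.16, −0.11, and −0.13, and the HFD+1B mice −0.09, −0.42, −0.23, −0.51, and −0.53. Every mouse with a value in the other 3 groups was below every chow mouse, and those 3 groups overlapped except that 1B and HFD+1B reached lower than HFD. One mouse each of chow, 1B, and HFD had no value, because the scanner software marked the spot as an outlier. The log2 difference from chow was −0.61 ± 0.11 (SE) in HFD+1B and −0.52 ± 0.12 in 1B, both called, and −0.39 ± 0.12 in HFD, not called.

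The 5 Ghr probes were all lower in HFD+1B than in chow and differed among themselves in HFD. The 3 bright probes (mean log2 Cy5 of 12.4, 11.6, and 11.47) were lower than in chow by a log2 difference of −0.57 to −0.74 in HFD+1B, and by −0.17 to −0.39 in HFD. The 2 dim probes (7.43 and 7.09), annotated to complementary DNA clones and not to the reference transcripts, had differences of 0.72 and 0.34 in HFD minus chow, neither called, and of −0.72 (called) and −0.49 (not called) in HFD+1B minus chow. On Ghr probe 4 the HFD mice gave 0.64, 0.43, 0.79, and 0.76, above the highest chow mouse at 0.27, and the HFD+1B mice gave −1.11, −0.68, −0.97, −0.97, and −0.18. The difference of HFD+1B minus HFD was called for these 2 probes (−1.44 ± 0.22 and −0.82 ± 0.17) and for bright probe 3 (−0.57 ± 0.14). The interaction was called for the 2 dim probes alone of the 19, which is the effect of ethanol on the high-fat diet minus its effect on chow (−1.46 ± 0.32 and −0.91 ± 0.25). Interaction calls were made for 2.66% of all genes above 0 and 1.72% below 0, and for none of the 10 genes on the brightest probe. Averaged over its 5 probes, Ghr differed by 0.08 in HFD minus chow, against −0.39 on the brightest.

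**Figure D3:**
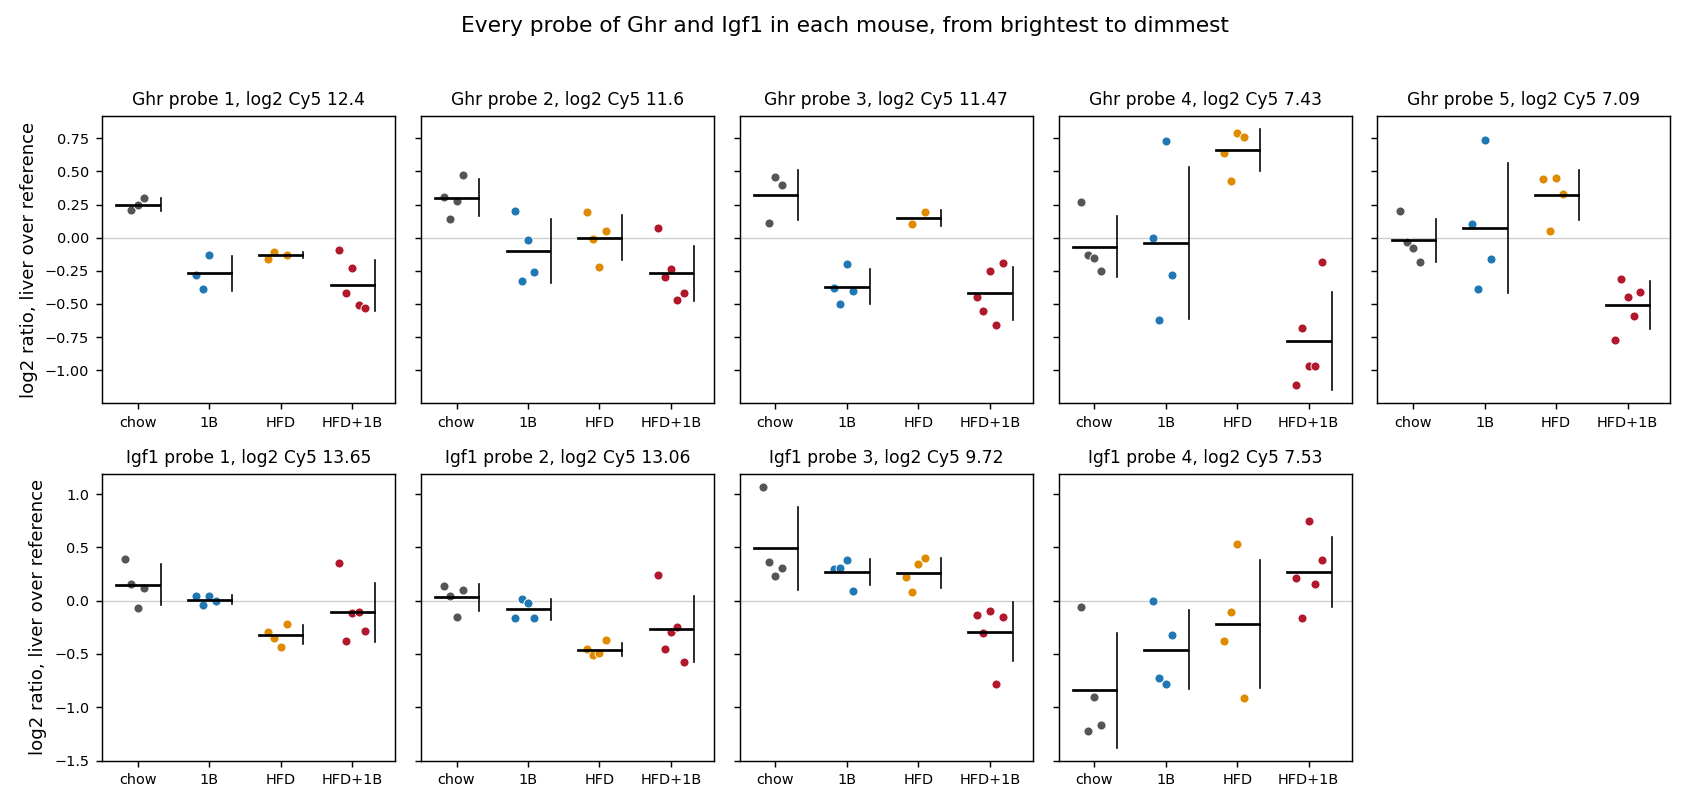
Log2 ratio of liver to reference in each mouse for the 5 Ghr probes (top) and the 4 Igf1 probes (bottom), from brightest to dimmest, with group mean (horizontal line) and SD (vertical line). The HFD mice lie below chow on Ghr probe 1 and above chow on Ghr probe 4, and the HFD+1B mean is below chow on Igf1 probe 3 (−0.29 against 0.49) and above it on Igf1 probe 4 (0.27 against −0.84).

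Socs2 and Cish are STAT5 targets that switch the receptor off, and their levels varied widely among mice of 1 group. Socs2 gave −0.22, 0.65, −0.61, and 0.50 in chow, 1.43, 0.37, 0.85, and 0.48 in 1B, with a range of −0.77 to 1.20 (median 0.19) in HFD+1B and of −0.70 to 0.68 (median 0.13) in HFD. The groups overlapped, and the 95% interval of the log2 difference from chow was −0.72 to 0.84 in HFD+1B, −0.84 to 0.80 in HFD, and −0.12 to 1.53 in 1B. The dimmer Socs2 probe was not well above background in any chow, 1B, or HFD mouse, and was above it in 4 of 5 HFD+1B mice. By group means its Cy5 signal in HFD+1B was at least 1.15-fold higher than in chow and at least 1.11-fold higher than in 1B and in HFD. Its log2 ratio was not called, with overlapping mice. The difference was 0.23 (95% interval 0.06 to 0.41) against chow and 0.22 (0.04 to 0.39) against HFD. The Cy5 bound compares mean Cy5 after loess and Aquantile with the lowest signal well above background. It does not allow for the spread among mice, and dye bias in it was not balanced by swapped arrays.

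Cish gave 0.33, 0.97, −1.04, and 0.48 in chow, and ranged from −0.79 to 0.69 in HFD+1B, −0.84 to 0.53 in HFD, and −0.49 to 1.07 in 1B. The groups overlapped, and the interval of the difference from chow reached from −1.13 to 0.57 in HFD+1B, from −1.28 to 0.51 in HFD, and from −0.65 to 1.14 in 1B. Each interval reached past 1 log2 unit on 1 side, so a 2-fold difference lay within it. Over the 17 arrays Socs2 and Cish were correlated at r = 0.69, and at 0.67 after the group means were taken out, as a description of arrays that share slides and a reference.

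Bcl6, the repressor, had the largest standard errors of the 10 genes. Chow mice gave −0.88, −0.06, 1.28, and −1.20, and 1B mice gave −1.79, 0.81, −1.88, and −1.57, so that 1 mouse in each of these groups was well above the rest. HFD mice ranged from −0.88 to 0.61 and HFD+1B mice from −1.09 to −0.17. Bcl6 was not called in any comparison, and the difference of 1B minus chow (−0.89 ± 0.55) became −1.53 without 1B mouse 2 and −0.39 without chow mouse 3. Bcl6 ran opposite to Cish over the arrays (r = −0.68, within groups −0.67).

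Igf1 encodes the growth factor that liver secretes in response to growth hormone. On the brightest probe chow mice gave 0.39, 0.16, −0.07, and 0.12, 1B mice 0.04, −0.04, 0.04, and 0.00, HFD mice −0.29, −0.35, −0.43, and −0.22, and HFD+1B mice 0.35, −0.38, −0.12, −0.11, and −0.28. All HFD mice were below all chow and all 1B mice, and the HFD+1B mice spread over the ranges of the other groups. The log2 difference was −0.47 ± 0.13 in HFD minus chow, which was called and is 1.38-fold lower, and −0.26 ± 0.12 in HFD+1B minus chow, which was not. The call in HFD passed in 19 of 27 alternative settings, and it was lost with the ratios the authors deposited, with Cy5 alone, with the mean of all 4 probes (−0.14), and without chow mouse 1, 2, or 4 or HFD mouse 2 or 3. Igf1 probe 2, spotted 10 times on each array, gave −0.49 ± 0.13 and −0.30 ± 0.12.

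The dimmer Igf1 probes differed from the bright pair. Probe 3 (mean log2 Cy5 of 9.72) gave −0.23 ± 0.17 in HFD minus chow and −0.78 ± 0.16 in HFD+1B minus chow, which was called. Chow mouse 1, at 1.07, stood far above the other chow mice on that probe, at 0.23 to 0.36. Probe 4 (7.53), annotated to a complementary DNA clone from liver tumor, went the other way, with chow mice at −0.06, −1.22, −0.90, and −1.17 and HFD+1B mice at 0.21, −0.16, 0.75, 0.16, and 0.38, a log2 difference of 1.11 ± 0.27 that was called. It was the only probe of the 19 called higher in any comparison. The mean of all 4 probes gave −0.06 in HFD+1B minus chow.

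Igfals encodes the acid labile subunit that holds IGF-1 in its large circulating complex. Chow mice gave 0.47, 0.66, 0.47, and 0.50, 1B mice −0.10, −0.17, 0.14, and −0.34, HFD mice 0.33, 0.24, −0.52, and 0.39, and HFD+1B mice −0.89, −1.28, −0.92, −1.19, and −0.96. All HFD+1B mice were below all mice of the other groups, and all 1B and HFD mice were below all chow mice. The log2 difference from chow was −0.64 ± 0.16 in 1B and −1.57 ± 0.15 in HFD+1B, both called, and −0.41 ± 0.16 in HFD, not called. HFD+1B was 2.23-fold below HFD (log2 difference −1.16 ± 0.15, called). HFD mouse 3 lay far below the other HFD mice, and without it the difference of HFD minus chow was −0.20, that of HFD+1B minus HFD −1.37, and the interaction, −0.52 ± 0.22 with all mice, was −0.73 and passed the threshold.

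Igfbp2 encodes an IGF-binding protein secreted by the liver. Chow mice gave 0.99, 1.01, 0.82, and 1.09, 1B mice 0.01, −0.02, 0.42, and 0.11, HFD mice −1.09, −0.30, −0.99, and −0.55, and HFD+1B mice −1.34, −1.97, −0.89, −2.47, and −1.62. The groups ran in the order chow, 1B, HFD, HFD+1B, without overlap except between HFD and HFD+1B. The log2 difference from chow was −0.85 ± 0.25 in 1B, which was not called, −1.71 ± 0.25 in HFD (3.27-fold lower, called), and −2.63 ± 0.23 in HFD+1B (6.21-fold lower, called). HFD+1B minus HFD was −0.93 ± 0.23 (called), and the interaction was −0.08 ± 0.34. On slides that held both groups HFD+1B was below HFD on 3 of 4. It was below chow on 4 of 4, which followed from the lack of overlap with chow.

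Hsd3b5, a steroid dehydrogenase of male mouse liver, had the largest differences of the 10 genes in the 3 comparisons with chow, and in HFD+1B minus HFD that of Keg1 was larger. Chow mice gave 1.31, 1.35, 1.44, and 2.09, 1B mice 0.22, −0.26, 0.90, and −1.02, HFD mice −2.23, −3.14, −3.85, and −1.64, and HFD+1B mice −3.47, −4.32, −3.75, −3.94, and −3.89. Chow lay above 1B, and 1B above both high-fat groups, whose ranges overlapped through HFD mouse 3. The log2 difference from chow was −5.42 ± 0.38 in HFD+1B (42.8-fold lower), −4.26 ± 0.40 in HFD (19.2-fold lower), and −1.59 ± 0.40 in 1B (3.01-fold lower), all called. The signal was well above background in 3 of 4 HFD and 3 of 5 HFD+1B mice, and the ratio in these groups depends on how background was handled: the log2 difference of HFD+1B minus chow was −8.19 in the ratios the authors deposited and at the other end of the alternatives −5.21. HFD+1B minus HFD was −1.16 ± 0.38 and called, but it passed in only 9 of the 26 alternative settings that gave a value. Other steroid dehydrogenase genes of this cluster are close in sequence, and cross-hybridization was not tested.

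Elovl3, an elongase of very long chain fatty acids, was not called in any comparison. Chow mice gave −0.86, 0.12, 0.56, and 0.40, 1B mice −0.54, −0.58, 0.54, and 0.81, HFD mice −0.59, −0.20, −1.26, and 0.47, and HFD+1B mice −0.76, −1.72, −0.33, −1.59, and −0.60. The groups overlapped, and 2 of the HFD+1B mice were below all mice of the other groups. The log2 difference of HFD+1B minus chow was −1.05 ± 0.39, with a 95% interval of −1.88 to −0.23.

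Keg1 (kidney expressed gene 1) belongs to the glycine N-acyltransferase–like genes of liver and kidney. On its brighter probe chow mice gave 0.92, 1.41, 0.94, and 1.51, 1B mice −0.27, −0.43, 0.16, and −0.74, HFD mice 0.42, −0.02, −1.26, and 1.05, and HFD+1B mice −1.83, −3.11, −2.65, −2.15, and −2.23. All HFD+1B mice were below all others, all 1B mice were below all chow mice, and the HFD mice reached from the chow range to below the 1B range. The log2 difference from chow was −1.51 ± 0.36 in 1B (2.86-fold lower, called), −1.15 ± 0.36 in HFD (not called), and −3.59 ± 0.34 in HFD+1B (12-fold lower, called). HFD+1B was 5.43-fold below HFD (−2.44 ± 0.34, called). On 4 of 4 slides with both groups it was lower, which followed from the lack of overlap with HFD. The dimmer Keg1 probe gave −1.38 ± 0.35, −0.74 ± 0.35, −3.06 ± 0.33, and −2.32 ± 0.33 for the same comparisons, so both probes moved together.

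In 1B the calls were the least steady. The 4 genes called lower (Ghr, Igfals, Hsd3b5, and Keg1) became 0 without any 1 of chow mouse 2, chow mouse 4, 1B mouse 1, or 1B mouse 2, 1 without chow mouse 3 or 1B mouse 4, and 2 without chow mouse 1, although each difference stayed below 0 in all of these settings. On slides that held both groups Igfals, Igfbp2, Hsd3b5, and Keg1 were each lower in 1B than in chow on 3 of 3, and Ghr on 2 of 2. For these genes every 1B mouse with a value was below every chow mouse. The order on a slide followed from this and adds no support. In HFD minus chow the 3 calls became 5 without HFD+1B mouse 1, which adds Ghr and Keg1, since all groups share 1 estimate of the spread.

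The patterns of several genes ran in parallel over the arrays. Igfals and Keg1 were correlated at r = 0.98 over 17 arrays (within groups 0.86), Igfbp2 and Hsd3b5 at 0.93 (within groups 0.27), and Hsd3b5 and Keg1 at 0.84 (within groups 0.87). HFD mouse 3 was the lowest HFD mouse for Igfals, Keg1, and Hsd3b5 alike, and correlations without it were not computed. Among 17992 other genes with a value on every array, the most similar to Igfals were BC024137, Pbld1, and Akr1c14 (r = 0.96, 0.95, and 0.94), and to Keg1 BC024137, Lin7a, and LOC102642067 (0.96, 0.94, and 0.94). Those most similar to Igfbp2 were Cyp2c44, Ugt2a3, and Lifr (0.97, 0.96, and 0.95), and to Hsd3b5 Lifr, Trip4, and Cyp2c44 (0.96, 0.95, and 0.95). For Ghr they were Serpinb1a, Rfx7, and Atm (0.94, 0.92, and 0.92, over 14 arrays), for Igf1 Ssty1, Taf1a, and Tuba4a (0.86, 0.86, and 0.85), and for Elovl3 Gchfr, Farp2, and Rfwd2 (0.90, 0.88, and 0.86). The highest values were lower for Socs2 (Brsk2, 0.80, Fam83b, 0.76, and Nlrp12, 0.74), Cish (Zbtb9, 0.72, Fcna, 0.71, and B230369F24Rik, 0.71), and Bcl6 (Prkci, 0.73, Pask, 0.73, and Serpina3i, 0.72). Within groups the correlations with these similar genes reached from 0.32 (Hsd3b5 with Cyp2c44) to 0.91 (Ghr with Rfx7). For Hsd3b5 they were 0.60 with Lifr and 0.58 with Trip4. All these correlations describe 4 groups with different means on shared slides and carry no test.

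Other genes of the axis were taken from 4 lists written from general knowledge (65 genes, of which 51 were tested). Of 16 male-biased, growth hormone–dependent genes tested, 14 fell in HFD+1B, 12 fell in HFD, and none was called in 1B, with median log2 differences from chow of −1.61, −1.36, and 0.04. Of all genes 7.40%, 6.46%, and 2.04% were called lower in the same comparisons. The list counts related genes separately (Cyp4a12a and Cyp4a12b, Mup1 and Mup3, Ugt2b1 and Ugt2b38), and cross-hybridization between them was not tested. Cyp7b1 and Slco1a1 were known beforehand to be lower in HFD+1B, and without them 10 of 14 fell in HFD and 12 of 14 in HFD+1B. In HFD+1B minus HFD 6 of 16 fell and 1 rose, against 8.39% and 11.0% of all genes. The mean over the 16 genes, relative to chow, ranged from −1.46 to −0.94 in HFD mice and from −2.05 to −1.11 in HFD+1B mice, against −0.24 to 0.21 in chow and 0.02 to 0.15 in 1B.

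Slco1a1, an organic anion transporter, had a mean level of −2.36 ± 1.12 (SD, n = 5) in HFD+1B and −1.52 ± 0.94 (n = 4) in HFD, below those of 1B (0.71 ± 0.21, n = 4) and chow (0.86 ± 0.43, n = 4). It fell in HFD (log2 difference −2.38 ± 0.49 (SE), limma adjusted p = 0.00558) and in HFD+1B (−3.21 ± 0.46, limma adjusted p = 0.000124). Cyp7b1, an oxysterol hydroxylase, fell by a log2 difference of −1.67 ± 0.34 in HFD (limma adjusted p = 0.00494) and −2.93 ± 0.32 in HFD+1B (limma adjusted p = 8.29e-06). In HFD+1B minus HFD its difference was −1.26 ± 0.32 (limma adjusted p = 0.0111, with overlapping mice). That Slco1a1 and Cyp7b1 were lower in HFD+1B than in chow was known beforehand, so those p-values are a description and not a test. Mup1, a major urinary protein and pheromone carrier whose probe cannot be told from close paralogs, fell in HFD (−1.66 ± 0.41, limma adjusted p = 0.0177). All 4 mice of HFD were below all chow mice for these 3 genes.

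Selenbp2, a selenium-binding protein, had its lowest mean level in HFD+1B (−1.99 ± 0.36 (SD)), then HFD (−0.73 ± 0.28), chow (0.58 ± 0.67), and 1B (1.25 ± 0.29). It fell in HFD+1B against chow (−2.57 ± 0.25 (SE), limma adjusted p = 2.96e-06) and against HFD (−1.26 ± 0.25, limma adjusted p = 0.00238). Its interaction was −1.94 ± 0.37 (limma adjusted p = 0.00976). C4a, a complement gene with a near-identical copy, fell in HFD (−1.53 ± 0.33, limma adjusted p = 0.00761) and rose in HFD+1B minus HFD (1.37 ± 0.32, limma adjusted p = 0.00619, with overlapping mice), and its difference of HFD+1B minus chow was −0.16 ± 0.32, not called.

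The 16 female-biased genes tested were split in direction. In HFD+1B 4 rose and 6 fell, in HFD 3 rose and 4 fell, and in 1B 1 rose and 1 fell, with a median log2 difference from chow of −0.10, 0.03, and −0.02. Of all genes 8.90% were called higher and 7.40% lower in HFD+1B, 4.50% and 6.46% in HFD, and 2.09% and 2.04% in 1B. The genes that fell in HFD included Cyp3a16, Cyp3a41a, and Cyp3a44, which belong to the same subfamily and were counted separately. Cyp2a4, a steroid hydroxylase close in sequence to Cyp2a5, was highest in the chow mice (1.40 ± 0.23 (SD, n = 3)), against −0.45 ± 0.53 (n = 3) in HFD, −1.10 ± 0.15 (n = 3) in 1B, and −1.33 ± 0.60 (n = 5) in HFD+1B. It fell in HFD+1B (−2.73 ± 0.29 (SE), limma adjusted p = 1.68e-05), in 1B (−2.50 ± 0.32, limma adjusted p = 0.000409), and in HFD (−1.85 ± 0.32, limma adjusted p = 0.00278). Cyp2a4 was lower in HFD+1B than in HFD (−0.88 ± 0.29, limma adjusted p = 0.0472, with overlapping mice), and its interaction was 1.62 ± 0.43 (limma adjusted p = 0.0493).

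Cyp2b13 and Cyp2b9, cytochrome P450 genes of female liver, rose. Cyp2b13 was lowest in the chow mice (−1.98 ± 0.90 (SD, n = 3)), against −0.60 ± 0.48 (n = 4) in HFD, −0.34 ± 0.35 (n = 5) in HFD+1B, and 0.26 ± 0.14 (n = 4) in 1B, a rise of 2.24 ± 0.32 (SE) in 1B (limma adjusted p = 0.000588) and of 1.64 ± 0.31 in HFD+1B (limma adjusted p = 0.00147), with an interaction of −1.99 ± 0.43 (limma adjusted p = 0.0188). Cyp2b9 rose by 1.59 ± 0.20 in HFD (limma adjusted p = 0.000151). Cyp3a41a fell by −1.77 ± 0.20 in HFD (limma adjusted p = 7.96e-05) and −1.63 ± 0.19 in HFD+1B (limma adjusted p = 1.66e-05). Cyp2c40 fell in HFD+1B minus HFD (−0.71 ± 0.17, limma adjusted p = 0.00894). Members of these P450 subfamilies are close in sequence, and cross-hybridization was not tested.

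**Figure D4:**
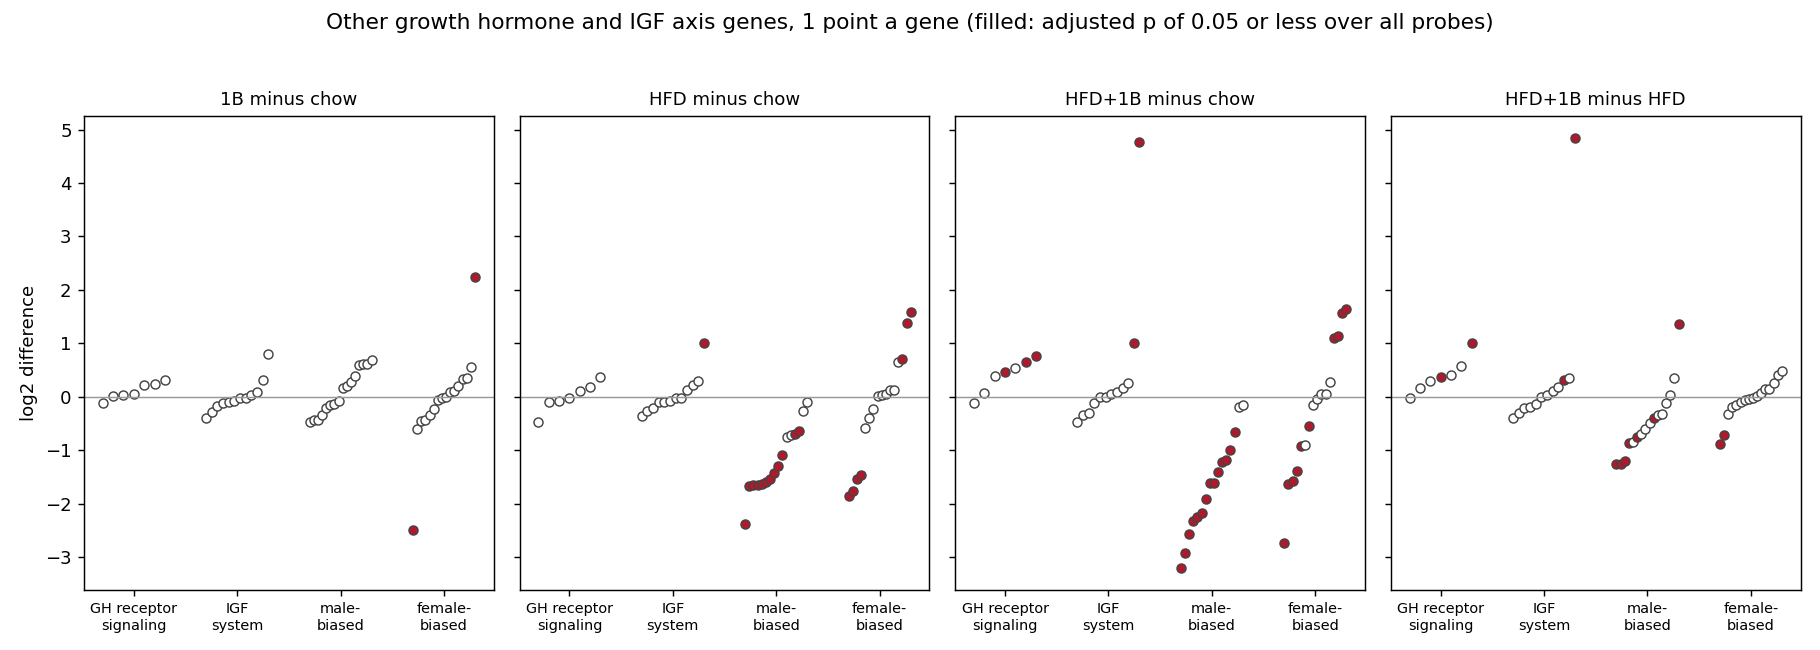
Log2 difference between groups (vertical axis) of the other growth hormone and IGF axis genes, 1 point a gene in 4 lists, ordered within a list from lowest to highest. Filled points were called by limma at the 0.05 threshold, and the male-biased genes lie below 0 in HFD minus chow (12 of 16 filled) and HFD+1B minus chow (14 of 16 filled), with none filled in 1B minus chow.

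Among 7 genes of receptor signaling tested, including Jak2 and Stat5b, none was called in 1B or HFD, 3 rose in HFD+1B against chow, and 2 rose in HFD+1B against HFD. The shares of all genes called higher in the last pair of comparisons were 8.90% and 11.0%, and with 7 genes little can be read from these counts. Socs1, a JAK inhibitor, rose by 0.76 ± 0.23 (limma adjusted p = 0.0311, with overlapping mice), and the phosphatase genes Ptpn1 and Ptpn11 by 0.66 ± 0.16 (limma adjusted p = 0.00807) and 0.46 ± 0.12 (limma adjusted p = 0.0156). Against HFD, Socs3, a cytokine-induced inhibitor, rose by 1.01 ± 0.20 (limma adjusted p = 0.00247) and Ptpn11 by 0.37 ± 0.12 (limma adjusted p = 0.0464). Their mean levels in HFD+1B were 0.06 ± 0.35 (SD) for Socs3, against −0.95 ± 0.48 in HFD, and 0.12 ± 0.14 for Ptpn11, against −0.25 ± 0.05.

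Of 12 other genes of the IGF system tested, none was called lower in any comparison, and 1 rose in HFD and 2 in HFD+1B against chow, where 4.50% and 8.90% of all genes did. Igfbp1, an insulin-suppressed binding protein that sequesters IGF-1, was at 1.39 ± 0.70 (SD, n = 5) in HFD+1B, against −3.46 ± 0.06 (n = 2) in HFD, −2.57 ± 0.91 (n = 3) in 1B, and −3.37 ± 0.31 (n = 3) in chow. The lowest HFD+1B mouse, at 0.44, was above the highest of all other mice with a value, at −1.56. Igfbp1 rose by 4.76 ± 0.39 (SE) in HFD+1B against chow (limma adjusted p = 3.63e-06) and by 4.85 ± 0.45 against HFD (limma adjusted p = 2.9e-05), and its interaction was 4.05 ± 0.63 (limma adjusted p = 0.00587). Igfbp7 rose by 1.00 ± 0.23 in HFD (limma adjusted p = 0.0112) and by 1.00 ± 0.22 in HFD+1B (limma adjusted p = 0.00412, with overlapping mice). Igfbp6 rose by 0.32 ± 0.10 in HFD+1B minus HFD (limma adjusted p = 0.0295).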

How the data were processed

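Livers of 17 mice in 4 groups were measured on 2-color arrays without dye swap, and array number limits the precision. Per the file headers, spots were extracted with Feature Extraction 11.5.1.1, which the authors deposited as raw median intensity of spot and local background for Cy5 and Cy3, with processed signals after background subtraction and dye normalization. Probe coordinates were not used, and gene symbols are those of the array design, which can be old. The table of the authors holds the log2 ratio of these processed signals (largest difference on recalculation 2.7e-06), with 0 value columns unassigned.

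Raw intensity was corrected with normexp (offset 50), outlier spots were left out, log2 ratios were normalized by loess within each array, and spots of 1 probe were averaged. An offset compresses ratios of dim probes. Tested probes had values in all groups and passed the Cy5 background flag on 4 or more arrays. One limma 3.58.1 model held the group means of the 17 mice (lmFit, eBayes, R 4.3.3), with p-values adjusted by Benjamini-Hochberg over all 34664 probes. The fit was tested on simulated data. Each replicate is 1 mouse. Where the software left a spot out as an outlier, that mouse had no value and the fit used the rest. The 3 largest called genes of each list and comparison, and the 3 genes most correlated with each member, are named. Members were chosen with earlier results of these data known. The lists were written from general knowledge and not for how their genes moved here, though earlier results, including those of Cyp7b1 and Slco1a1, were known. Alternatives were other background, normalization, filters, call rules (analysis of variance with the Tukey test and a 2-fold rule among them), blocks for slide or replicate, Cy5 alone, the mean of all probes, and each mouse left out.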

Additional observations from a re-analysis of the deposited data

Results flagged for a closer look

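A mouse far from the rest of its group was sought in 71 groups of 4 or 5 values over the 19 probes, and 4 were found. Chance alone marks about 1 in 20 such groups. The gap to the nearest mouse, as a share of the range of the group, was 0.843 for chow mouse 1, the highest on Igf1 probe 3, 0.838 for HFD mouse 3, the lowest for Igfals, 0.834 for chow mouse 4, the highest for Hsd3b5, and 0.884 for 1B mouse 2, the highest for Bcl6. HFD mouse 3 was also the lowest of the HFD mice for Keg1, Hsd3b5, and Elovl3.

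The effect of ethanol differed between the high-fat and the chow diet, by the limma interaction, for 4 list genes. The interaction was 4.05 for Igfbp1, which has HFD values in 2 of 4 mice, −1.94 for Selenbp2, −1.99 for Cyp2b13, and 1.62 for Cyp2a4.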

How the results depend on the processing

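Among the counts of genes called, 514 values under an alternative stayed within 1.5 times the main value and 62 did not, and of the differences of the 10 genes 1318 moved by less than the residual SD and 22 by more, and no called difference changed sign. Genes of the 10 called lower in HFD+1B minus chow numbered 4 to 6 in all settings and in HFD+1B minus HFD 3 to 5. In 1B minus chow the 4 became 1 with the ratios of the authors, 1 with Cy5 alone, 2 with slide as a block, 2 with the 2-fold rule, and 0 to 5 without 1 mouse. In HFD minus chow the 3 became 6 with median centring and 2 to 5 without 1 mouse, and the 0 lower interactions became 0 to 1 without 1 mouse. Of the other axis genes, the 1 higher in 1B minus chow became 3 with the mean of all probes, and the 1 lower became 2 with the Tukey test and 1 to 2 without 1 mouse (2 without chow mouse 2, 1B mouse 4, or HFD+1B mouse 1). In HFD minus chow the 4 higher became 2 with Cy5 alone and 2 with the 2-fold rule. In HFD+1B minus HFD the 5 higher became 2 with Cy5 alone, 3 with the 2-fold rule, 3 with the ratios of the authors, 10 with median centring, and 3 to 7 without 1 mouse (3 without HFD mouse 3, HFD mouse 4, or HFD+1B mouse 4). The 8 lower became 5 with Cy5 alone, 3 with the 2-fold rule, 3 with median centring, and 4 to 14 without 1 mouse (14 without HFD+1B mouse 1, and 4 or 5 without HFD mouse 1, HFD mouse 3, HFD mouse 4, HFD+1B mouse 2, or HFD+1B mouse 4). The 2 higher interactions became 0 with Cy5 alone, 1 with all probes, 1 with the ratios of the authors, 1 with the mean of all probes, 4 with median centring, and 1 to 3 without 1 mouse (1 without any 1 of 13 mice), and the 2 lower became 1 with Cy5 alone, 4 with the 2-fold rule, 1 with the mean of all probes, and 1 to 5 without 1 mouse (5 without HFD mouse 2, 4 without HFD+1B mouse 1, 1 without chow mouse 3 or chow mouse 4). The causes were not tested. Same-numbered mice of different groups were weakly alike (median correlation of deviations 0.18, lowest −0.13, 24 pairs). Mice of different numbers and groups had a median of −0.05 (84 pairs). Many same-numbered mice shared a slide, so pairing by number cannot be told apart from slide. With a replicate block 3 of the 10 genes were called lower in 1B minus chow, 4 in HFD minus chow, 5 in HFD+1B minus chow, and 3 in HFD+1B minus HFD. Mice on the same slide had a median correlation of 0.20, against −0.04 on different slides. Hsd3b5 in the high-fat groups was near background, which limits its ratio.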
